A study of Mus musculus with 2 samples.

Results

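The hair follicle stem cell and outer sheath genes described here are 10 genes chosen by name, of 10456 genes or transcripts measured in mouse skin. They are 7 genes of the bulge, Krt15, Cd34, Lgr5, Sox9, Lhx2, Nfatc1 and Tcf3, and 3 genes of the companion layer and outer root sheath, Krt75, Fst and Sostdc1. The skin came from Pla2g2f-Tg/+ mice and from their littermate controls, all 25 days old, of C57BL/6 background and on a standard diet. For each genotype the RNA of 4 mice was pooled. Pla2g2f encodes a secreted phospholipase A2, and the sources used here do not give the promoter that drives the transgene. Each of 2 arrays carried both pools. The transgenic pool was in Cy5 on array 1 and in Cy3 on array 2, so the dyes were exchanged.

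The bulge is the part of the outer root sheath below the sebaceous gland where the stem cells of the hair follicle rest between growth phases. The outer root sheath is continuous with the epidermis and encloses the growing hair, and the companion layer lies between it and the inner root sheath. Bulge cells and the hair germ beneath them restart growth when Wnt signals rise and BMP signals fall.

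Nothing in the labels makes the arrays separate pools, so they count as 1 replicate and the values carry no p-value. The error beside a mean is the standard deviation (SD) of the 2 arrays, which is technical. A gene was called when both arrays gave a difference of at least 2-fold in 1 direction. Over all measured genes the arrays differed by a median of 0.23 and the median log2 ratio of transgenic over control was -0.0079. The spike-in RNAs, whose ratios followed the dye and so cancelled between the arrays, kept a median of 0.46 log2 units toward the transgenic pool. The spike-in scale sets that median to 0. All values are on the arrays' own scale unless the spike-in scale is named. The Pla2g2f probe itself had log2 ratios of 0.54 and 0.34, a mean of 0.44 that was not called and came to -0.019 on the spike-in scale. Among skin markers, Krt5, Krt14, Krt10 and Lor were well above background in both pools. Whether the transgene's transcript contains that probe is unknown from the sources used here. Skin RNA cannot tell apart fewer cells of a type and less RNA per cell.

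The array carried 17 probes of 60 bases for these genes and for E2A, a second gene that bears the symbol Tcf3, and array 1 measured 15 of them, that is, read them well above background in the Cy5 or the Cy3 channel. Coordinates come from the array's design file and refer to mm8. The sequences below are the probe of the 1 called member, those of Cd34, Sostdc1, Krt15 and Fst, and a Tcf7l1 and a Sox9 probe that do not stand for their genes but gave other ratios than the probes that do. In the first 4 lines, each a stretch of 30 bases, the capitals mark a hexamer (AATAAA or ATTAAA) of the kind that precedes the end of a transcript.
Krt75, bases 31 to 60 of the probe at chromosome 15, 101392444 to 101392503, minus strand: cacctggaatgtgcctATTAAAtgcatgtg
Cd34, bases 23 to 52 of the probe at chromosome 1, 196661922 to 196661981, plus strand: tattctcttctgAATAAAcgtgatgagtga
Sostdc1, bases 1 to 30 of the probe at chromosome 12, 36828466 to 36828525, plus strand: tgtaaAATAAAtgttttactctccgtatat
Tcf7l1, bases 31 to 60 of the dimmer probe at chromosome 6, 72555892 to 72555951, minus strand: tattttcacaagagaaAATAAAattacagt
Krt15, the whole probe at chromosome 11, 99948116 to 99948175, minus strand: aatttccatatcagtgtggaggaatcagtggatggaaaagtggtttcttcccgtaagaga
Fst, the whole probe at chromosome 13, 115575362 to 115576034, minus strand: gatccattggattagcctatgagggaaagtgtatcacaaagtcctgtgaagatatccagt
Sox9, the whole of its dim probe at chromosome 11, 112599086 to 112599938, plus strand: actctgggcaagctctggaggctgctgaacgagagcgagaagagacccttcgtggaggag
Among the 15 of these probes that do not belong to Nfatc1, 4 held such a hexamer, beside 7.49% of all 41174 probes searched on the strand as printed. The Fst and Sox9 probes span 673 and 853 genomic bases with 60 bases of sequence, so each crosses an exon junction. The Krt15 probe lies in 1 genomic stretch.

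Krt75 fell 3.44-fold in transgenic skin and was the only member called, while the 7 bulge genes and the other sheath genes, Fst and Sostdc1, differed by less than the 2-fold rule. Among all genes the rule called 5.4%, made up of 1.68% lower and 3.72% higher, and against that background 1 lower and 0 higher of 10 members is no result about the group as a whole. The median log2 ratio of the 10 members was 0.032, near that of all genes. Of the 10, 4 were above 0 on both arrays (35.3% of all genes were) and 3 were below 0 on both (35.7% of all genes). The remaining 3, Sox9, Lhx2 and Sostdc1, had opposite signs on the 2 arrays. On array 1 all 10 stood well above background in each channel, so no member entered through the brighter pool alone.

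**Figure D1:**
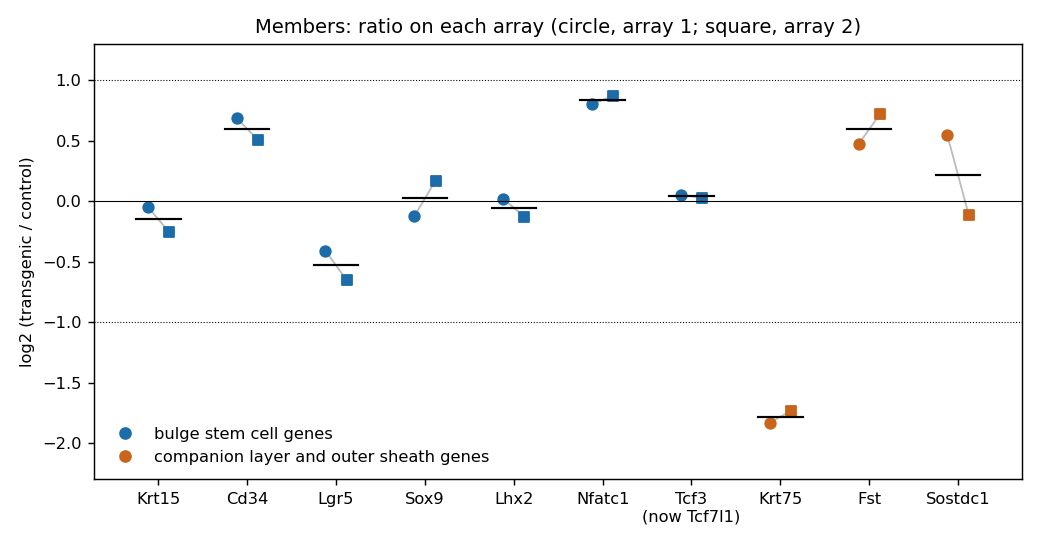
The log2 ratio of transgenic over control for each of the 10 members on array 1 (circles) and array 2 (squares), with the mean as a black bar and the 2-fold limits dotted. Krt75 lies below -1 on both arrays, and the other 9 members lie between -0.65 and 0.87.

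Krt75 encodes a type II keratin of the companion layer, the flat cell layer that ties the outer sheath to the inner sheath of a growing hair. On array 1 its signal was 4637 in the transgenic pool, against 16488 in the control pool. The arrays gave log2 ratios of -1.83 and -1.73, a mean of -1.78 ± 0.069 (SD of the 2 arrays). The scanner software gave the array 1 ratio an error of 0.26, so the ratio was many times its error. The arrays differed by 0.097, less than the median difference of all genes. On the spike-in scale the mean was -2.24. Krt75 lay at percentile 0.904 of all measured genes, ordered by log2 ratio from low to high.

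Fst encodes follistatin, a secreted protein that binds and blocks activins and, more weakly, some BMPs. Its signal on array 1 was 624 in the transgenic pool and 450 in the control pool. The log2 ratios were 0.47 and 0.72, a mean of 0.59 ± 0.17, above 0 on both arrays but under 2-fold. On the spike-in scale the mean was 0.14. Sostdc1 encodes a secreted inhibitor of BMP and Wnt signalling, also called ectodin or Wise. Its signal on array 1 was 4223 in the transgenic pool and 2893 in the control pool. The arrays disagreed on its sign, with log2 ratios of 0.55 on array 1 and -0.11 on array 2. That difference of 0.66 was the widest among the 10 members, and the mean of 0.22 ± 0.47 lay within it.

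**Figure D2:**
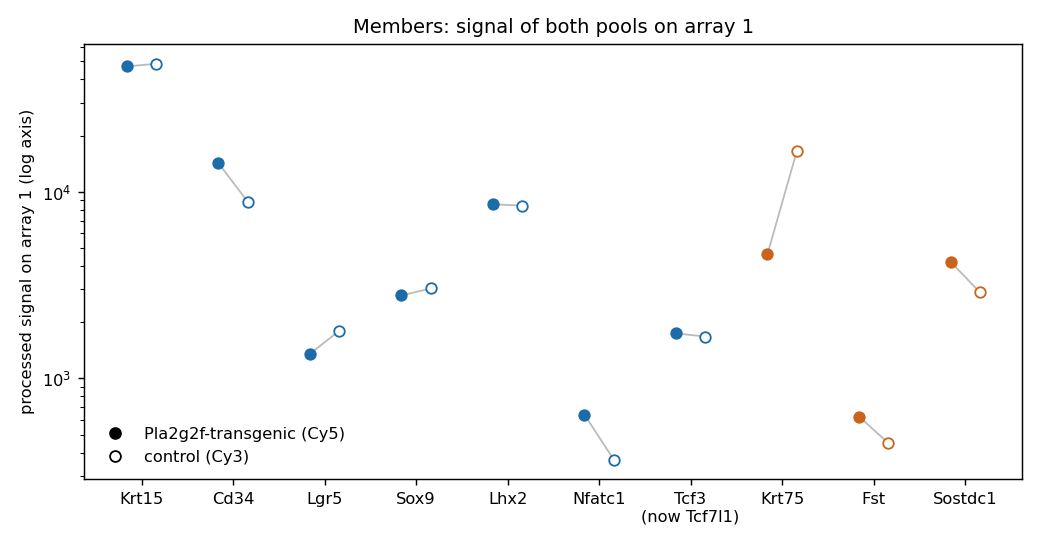
Processed signal of each member on array 1 (log axis) in the transgenic pool (filled) and the control pool (open), with 1 probe per gene. Only Krt75 shows a wide gap, 4637 in the transgenic pool against 16488 in the control pool; probes of different genes bind with different strength and are not to be set against each other.

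Among the keratin and surface markers of the bulge, Krt15 differed least from equality of the pools. Krt15 encodes a type I keratin of basal cells that is enriched in the bulge. Its signal on array 1 was 47028 in the transgenic pool and 48568 in the control pool. The log2 ratios were -0.046 and -0.25, a mean of -0.15 ± 0.15, so the mean was about as large as the spread of the arrays. Cd34 encodes a cell surface sialomucin that marks bulge keratinocytes in the mouse and also endothelial cells and other cells of the dermis. Its signal was 14255 in the transgenic pool and 8855 in the control pool of array 1. The log2 ratios were 0.69 and 0.51, a mean of 0.60 ± 0.13 or 1.51-fold, which was larger than the spread of the arrays but not called. Lgr5 encodes an R-spondin receptor that marks the lower bulge and the hair germ. Its signal was 1354 in the transgenic pool and 1798 in the control pool of array 1. The log2 ratios were -0.41 and -0.65, a mean of -0.53 ± 0.17, the lowest among the bulge genes. A second Lgr5 probe, drawn to the cDNA AK047873 at 11839 bases from the first, was not well above background in either channel.

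Cd34 and Lgr5 thus lay on opposite sides of 0 on both arrays, at percentiles 89.4 and 7.07 of all genes. Both values depended on the scale. On the spike-in scale Cd34 lay at 0.14 and Lgr5 at -0.99.

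The 4 transcription factors of the bulge spread around 0 with Nfatc1 above it. Nfatc1 encodes a calcineurin-dependent factor that keeps bulge cells quiescent and that T cells and endothelial cells also express. Its brighter probe, drawn to transcript variant 1, had a signal of 639 in the transgenic pool and 367 in the control pool of array 1. The log2 ratios of that probe were 0.80 and 0.87, a mean of 0.84 ± 0.052 or 1.79-fold, the highest among the members, at percentile 93.5. The other Nfatc1 probe, drawn to transcript variant 2 and lying 41775 genomic bases away in the 3' direction, gave 0.49 and 0.35, a mean of 0.42. The probes differed by 0.31 on array 1 and by 0.52 on array 2, more than either differed between the arrays. On the spike-in scale the variant 1 probe lay at 0.38 and the variant 2 probe at -0.037. Nfatc1 was the only member higher by at least 1.5-fold on each array, a limit that 8.26% of all genes passed upward, and Krt75 the only one lower, as were 3.8% of all genes.

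Sox9 encodes an HMG-box factor needed to set up the bulge and the outer sheath. The probe that stands for it (chromosome 11, 112601784 to 112601843) had a signal of 2783 in the transgenic pool and 3033 in the control pool of array 1, with log2 ratios of -0.12 and 0.17. A probe 1801 bases further 3' gave 0.28 and 0.22. The exon junction probe printed above gave 1.18 and 1.07, past 2-fold on both arrays, but its signals on array 1 were 198 in the transgenic pool and 87.5 in the control pool, and neither was well above background. The 3 Sox9 probes therefore did not give the same ratio, and those above background lay between -0.12 and 0.28.

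Lhx2 encodes a LIM homeobox factor that maintains bulge stem cells. It had a signal of 8562 in the transgenic pool and 8443 in the control pool of array 1. Its log2 ratios were 0.020 and -0.13, a mean of -0.054 ± 0.10. The arrays disagreed on its sign, and both ratios were small.

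The symbol Tcf3 stands for different genes on the array and in current use. Probes named Tcf3 on the array are drawn to NM_009332, now Tcf7l1, a repressor of the TCF/LEF family that acts in bulge cells. Its brighter probe had a signal of 1742 in the transgenic pool and 1676 in the control pool of array 1, with log2 ratios of 0.055 and 0.028, a mean of 0.042 ± 0.019. Its other probe, 845 bases away in the 3' direction, gave -0.26 and -0.21, so the probes of Tcf7l1 differed in sign by an amount far above the difference between arrays of either. E2A, whose current symbol is Tcf3 and which is a helix-loop-helix factor of lymphocytes and other cells, was named Tcfe2a on the array. Its brighter probe gave -0.21 and -0.10, and its other probe gave -0.37 and 0.38 with the transgenic channel not well above background on array 1. Neither gene was called.

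**Figure D3:**
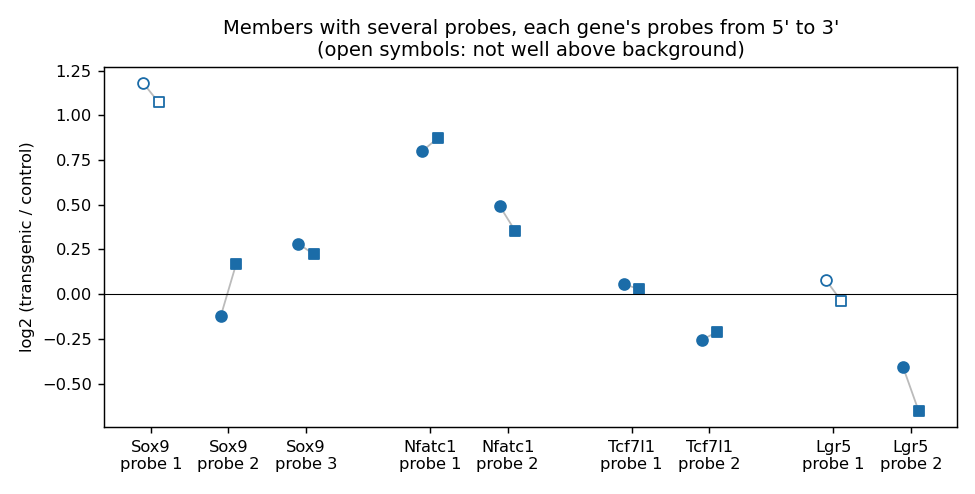
The log2 ratio of transgenic over control on array 1 (circles) and array 2 (squares) for every probe of the members with several, ordered 5' to 3' within a gene. The first Sox9 probe and the first Lgr5 probe (open symbols) were not well above background; both Nfatc1 probes lie above 0, and the Tcf7l1 probes lie on either side of it.

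Read together, the 7 bulge genes had a median log2 ratio of 0.023 and ranged from -0.53 for Lgr5 to 0.84 for Nfatc1. The 3 companion layer and outer sheath genes ranged from -1.78 for Krt75 to 0.59 for Fst, so the groups overlapped. Their median of 0.22 is the value of Sostdc1, whose arrays disagreed on its sign. The range of the sheath genes was the wider only through Krt75, and without Krt75 their median was 0.41. On array 1, 6 of the 10 members had a ratio larger than the error of the scanner software. The arrays differed by 0.027 to 0.66 over the members, and for 6 of 10 by less than the median difference of all genes. On the spike-in scale 7 of the 10 members were below 0.

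**Figure D4:**
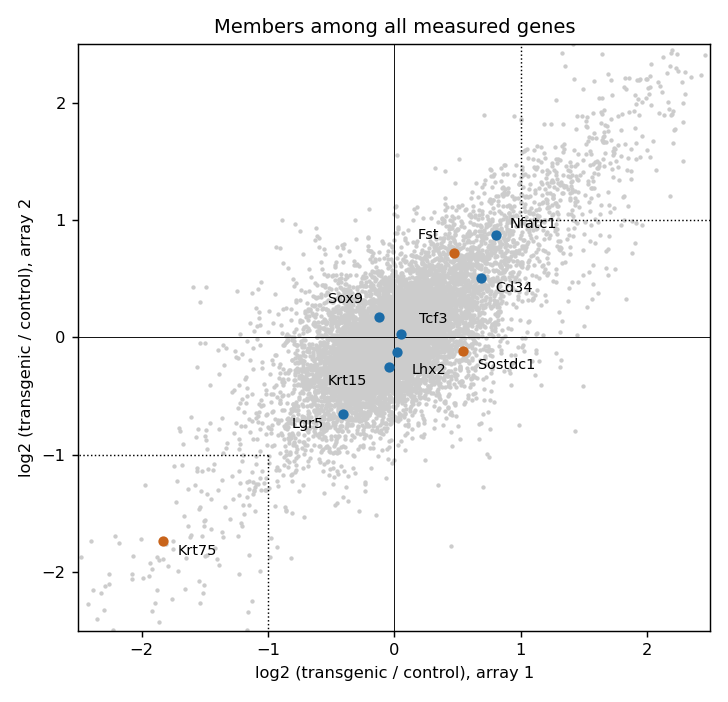
The log2 ratio of transgenic over control on array 1 (x) against array 2 (y) for measured genes (grey), with bulge genes in blue and companion layer and outer sheath genes in orange. Dotted corners mark the 2-fold rule, and 112 genes beyond 2.5 on either array lie outside the frame; only Krt75 lies in a corner, and 9 members lie within the 5th to 95th percentile of all genes by their mean.

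Hair shaft and inner root sheath keratins are made by the growing follicle and not by the bulge. Of the hair shaft markers 6 of 6 measured were called lower (1.68% of all genes were), with a median of -3.60. The transgenic channel of array 1 was not well above background for 3 of them, and the other 3 had a median of -2.35. Of the inner root sheath markers 6 of 6 were called lower, with a median of -2.26, or -2.25 over the 5 that were above background in both channels. Krt75, at -1.78, lay above all 6 measured genes of the inner root sheath list and all 6 of the hair shaft list, and below the 7 bulge genes. The summed signal on array 1 of the hair shaft markers was 9789 in the transgenic pool and 73884 in the control pool. The difference between these lists was not tested, since there is 1 pool per genotype.

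Genes that other work places in the bulge and hair germ held 3 calls. Of 22 listed, 20 were measured, with a median of -0.19 beside -0.0079 for all genes. The rule called 1 of the 20 higher and 2 lower, beside 3.72% and 1.68% of all genes, and 12 of the 20 were below 0 on both arrays, beside 35.7% of all genes. Over the 17 above background in both channels the median was -0.17, with 1 higher, 1 lower and 10 below 0 on both arrays. Wif1, a secreted inhibitor of Wnt ligands, fell 2.90-fold, with a signal of 1524 in the transgenic pool and 4338 in the control pool of array 1 and log2 ratios of -1.51 and -1.56. Bmp6, a BMP ligand that holds bulge cells at rest, had log2 ratios of -1.34 and -1.45, but the transgenic channel of array 1 was not well above background, and there it was at least 1.38-fold lower, taking for the transgenic pool the lowest signal that counts as above background. S100a4, a calcium-binding protein of bulge cells and also of fibroblasts and leukocytes, rose 2.35-fold. Sfrp1, another secreted Wnt inhibitor, lay at -0.72 and was not called.

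Genes of the upper follicle, above the bulge, lay above 0 throughout. All 5 measured of 6 listed were above 0 on both arrays, beside 35.3% of all genes. The median of the 5 was 1.44, which is the value of Gata6. The rule called 3 of them higher, beside 3.72% of all genes. Gata6 had a control channel not well above background on array 1, and the other 4 had a median of 1.56. Defb6, a beta-defensin, rose 11.4-fold. Krt79, a keratin of the cells that line the opening of the follicle and the sebaceous duct, rose 3.34-fold, with a signal of 21129 in the transgenic pool and 7097 in the control pool of array 1. Plet1, a surface protein of the junctional zone, rose 2.59-fold. Gata6, a factor of the sebaceous duct, had log2 ratios of 1.91 and 0.98 and missed the rule on array 2, and on array 1 it was at least 2.56-fold higher. Of 8 sebaceous gland markers listed, 7 had a named probe on the array and 4 were measured. All 4 were called higher (3.72% of all genes were), with a median of 2.34. Their summed array 1 signal was 60882 in the transgenic pool and 12064 in the control pool. Scd3, Mc5r and Awat2 were not well above background in either channel of array 1. With them included the median was 2.08. The part of sebaceous gland cells in the upper follicle values was not tested.

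Of the 11 keratinocyte genes listed for the outer sheath and companion layer beside the members, all were measured. The rule called 2 higher and 1 lower, beside 3.72% and 1.68% of all genes. The median of the 11 was 0.075. Krt16 and Krt14 were the 2 higher, at mean log2 ratios of 3.38 and 1.12, and neither is restricted to the outer sheath. Gjb2, which encodes a gap junction connexin, fell 3.97-fold, with a signal of 2796 in the transgenic pool and 10747 in the control pool of array 1. Gjb6, which encodes another connexin, had a mean of -1.01 but missed the rule on array 1, at -0.93. Among the called genes of this list, Krt75 shared its direction with Gjb2 and not with Krt16 or Krt14. Of the 11 genes, 6 were above 0 on both arrays and 3, Gjb2 and Gjb6 among them, were below 0 on both. The shares of all genes were 35.3% and 35.7%. Of the interfollicular epidermis markers 1 of 5 measured was called, higher, with a median of 0.64.

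Around Fst and Sostdc1, 13 of 18 listed activin and BMP pathway genes were measured, and 1 was called, lower, beside 1.68% of all genes. The median of the 13 was -0.24, and 9 of 13 were below 0 on both arrays, beside 35.7% of all genes. Over the 11 above background in both channels the median was -0.24 and 7 were below 0 on both arrays. Whether the list differs from other genes was not tested. Bambi, a decoy receptor that dampens BMP and TGF-beta signalling and is itself induced by them, fell 3.90-fold, with log2 ratios of -2.07 and -1.86. Id3, a direct BMP target, had log2 ratios of -1.39 and -0.78, and Smad7, an inhibitory Smad, had -0.38 and -1.28, so each passed 2-fold on 1 array only. Bmp4, a ligand of the dermal papilla and hair matrix, had -1.21 and -0.76. The activin subunit Inhba, whose protein follistatin binds, had -0.27 on array 1 and 0.46 on array 2, and Inhbb had 0.38 and 0.016.

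Of 11 Wnt co-receptor and antagonist genes, 6 were measured, with a median of -0.015. The rule called 1 of the 6, higher, beside 3.72% of all genes. Sfrp2, a secreted Wnt modulator, rose 3.17-fold, with a signal of 2369 in the transgenic pool and 755 in the control pool of array 1. Lrp4, a co-receptor that binds Sostdc1, had log2 ratios of 0.25 and 0.058. Kremen1, a receptor for Dickkopf proteins, lay at -0.36 and the R-spondin Rspo1 at -0.26, and neither was called.

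Over these 5 lists together 7 of 55 measured genes were called higher and 4 lower, beside 3.72% and 1.68% of all genes. The lists were chosen with earlier results of these data known, so the counts only describe them. On the spike-in scale 4 of the 55 were called higher and 9 lower, and of all genes 176 (1.68%) were higher and 457 (4.37%) lower. There S100a4, Plet1 and Krt14 lost their calls, and Sfrp1, Gjb6, Id3, Bmp4 and Smad6, another inhibitory Smad, were called lower. The transgenic channel of Smad6 was not well above background on array 1, so its size is not given.

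**Figure D5:**
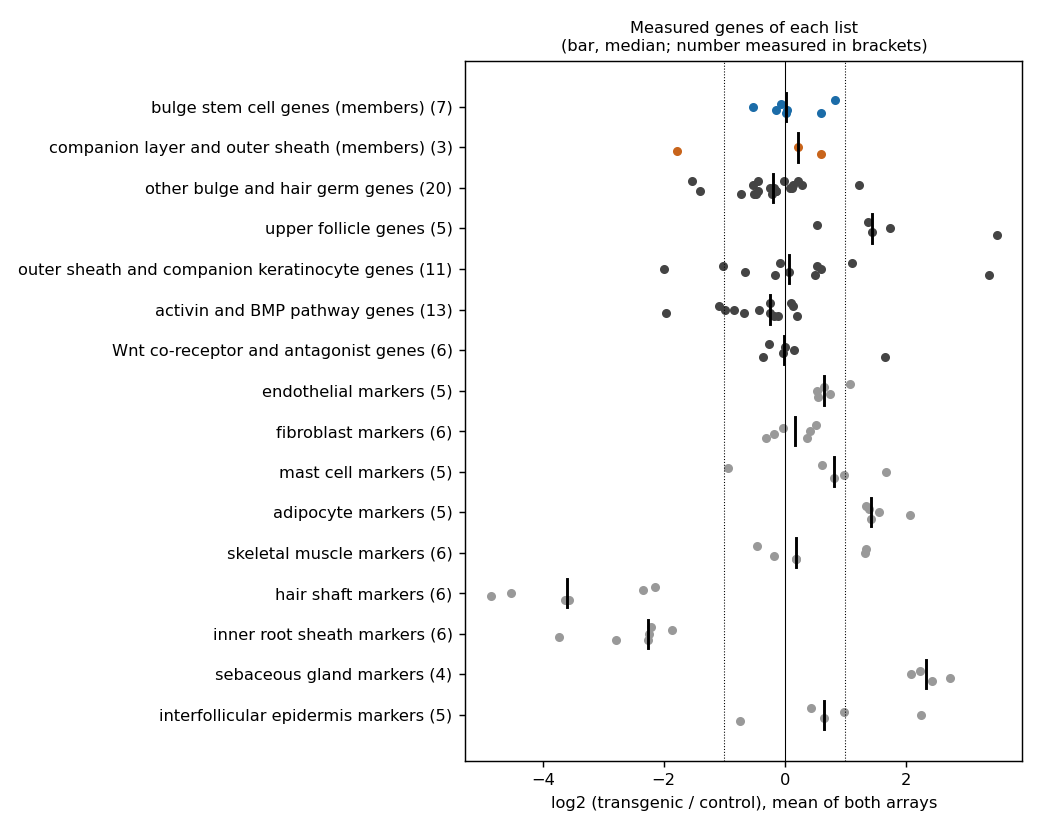
Mean log2 ratio of transgenic over control for each measured gene of the member groups, the 5 related lists and the cell type markers, with medians as bars and the number measured in brackets. The bulge genes centre near 0, while hair shaft and inner root sheath markers all lie below Krt75 and sebaceous gland markers above 2.

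Cd34 and Nfatc1 are not restricted to the follicle, and markers of some other cells of skin were examined, T cells not among them. Of the endothelial markers 5 of 7 were measured, all 5 above 0 on both arrays, with a median of 0.64 beside 0.60 for Cd34, and of 0.19 beside 0.14 on the spike-in scale. Without Eng, whose control channel was not well above background, the median was 0.70. The 4 largest were Vwf at 1.08, which was called, Emcn at 0.75, Kdr at 0.64 and Cdh5 at 0.55. Their summed signal on array 1 was 5424 in the transgenic pool and 3136 in the control pool. The fibroblast markers had a median of 0.17 over 6 measured, with 3 above 0 and 3 below 0 on both arrays, led by Lum at 0.52, Col3a1 at 0.42, Pdgfra at 0.37 and Col1a1 at -0.30. Mast cell markers had a median of 0.82 over 5 measured of 6, with Cpa3 at 0.98, Kit at -0.94 and Cma1 at 0.82. Hdc was called higher at 1.67, but its control channel was not well above background on array 1, where it was at least 1.56-fold higher, and without it the median was 0.72 and 0 were called. Adipocyte markers were called higher in 5 of 5 measured (3.72% of all genes were), with a median of 1.43. Skeletal muscle markers were called higher in 2 of 6, with a median of 0.19. The part of these cells in the values of Cd34 and Nfatc1 was not tested.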

How the data were processed

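Skin RNA of 25-day-old mice (500 ng) was labelled and hybridised to 2 two-colour Agilent arrays, per the labels' protocols. Spot intensity values of array 1 were deposited as scanner output, in which Agilent Feature Extraction 9.5.1.1 subtracted background, detrended, normalised the dyes (linear and LOWESS) and set surrogates for dim values, per the file headers, which compresses ratios near background. The same program estimated the error of each log10 ratio, per the file headers. The flags for spots well above background, saturated or outlying are deposited 0 or 1 values of that program. The deposited value table holds log10 of Cy5 over Cy3. Its array 1 column matched the scanner signals at all 43790 features within 5e-10. For array 2 only this table was used. Scale and direction were inferred from the labels' dyes and from 10 spike-in probes, which correlated at 1.00 between the columns as deposited, whereas the other features correlated at -0.579. Column medians were 0.0141 and -0.0234, so neither was centred.

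Values were converted to log2 with the sign of array 2 turned. Spots flagged as outliers (29) were dropped, and repeat spots of a probe were averaged. A probe counted as measured if array 1 read it well above background in either channel, and the brightest measured probe stood for a gene. On array 1, 0 spots other than controls were saturated. Repeat spots (10 probes printed 10 times) had median SDs of 0.094 and 0.097 in log2 ratio; precision is limited by there being 2 arrays. Probes were named through RefSeq accessions (24370), symbols (6300) or synonyms (2425) of GRCm38.p6, and 8072 kept the array's name. As each slide and scan holds 1 array, these could not be tested as batches.

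Python 3.11.15, pandas 2.3.3 and, for the normexp (offset 50) and loess alternative, limma 3.58.1 were used. The size rule was run on simulated data with noise scaled to the difference between the arrays. Those data held no dye bias and no spread between mice, so they cannot show how the rule fares with either. List medians over genes above background in both channels were chosen after seeing the data. Members and lists were chosen with earlier results of these data known. Named genes are all members with every probe and, from each related list, those called and the 4 with the largest absolute mean; Inhba and Inhbb were chosen after their values were seen, and of the markers only endothelial, fibroblast and mast cell genes are named.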

Additional observations from a re-analysis of the deposited data

How the results depend on the processing

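Krt75 was called lower, and no other member was called, under each alternative run at the 2-fold limit. With a 1.5-fold limit 1 member, Nfatc1, was higher, and the 5 related lists had 9 lower genes. The 1.5-fold limit was run with the main settings only. The mean of Nfatc1 moved from 0.84 to 0.58 with normexp and loess for array 1, and to 0.63 with measured probes averaged. Of 80 recomputed member means, 9 turned sign, none of them that of Krt75. The 80 include 10 without a filter on dim probes and 10 with both channels required well above background. Those could not change, since all 10 members stood well above background in each channel. Averaging probes could not change Krt75 or any other member with 1 measured probe.

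Centred on the spike-ins, the medians were -0.43 for all members, -0.44 for bulge genes and -0.24 for sheath genes, and the lists had 4 higher and 9 lower genes. Centred on the median of all probes, all members lay at -0.029 and bulge genes at -0.039. The bulge median was 0.029 with normexp and loess for array 1, and -0.054 both with measured probes averaged and with E2A taken as Tcf3, the last chosen after seeing the data. From 1 array, medians ranged from -0.042 to 0.038 for all members, 0.020 to 0.028 for bulge genes and -0.11 to 0.47 for sheath genes, the lower sheath value being array 2 alone.

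Over all genes, higher and lower calls were 389 and 176. They were 243 and 86 with both channels well above background, 176 and 457 centred on the spike-ins, 107 and 56 with normexp and loess, 864 and 397 at 1.5-fold, and from 1 array 520 to 568 higher and 259 to 274 lower. By construction, the 1.5-fold limit and the use of 1 array can only add calls, and the stricter filter leaves fewer genes to call. Centring on the spike-ins can only remove higher calls and add lower ones. The cause of the lower counts with normexp and loess was not tested. With 1 pool per genotype the spread between mice is unknown.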
